A study of Caenorhabditis elegans with 16 samples.

Results

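The lipl genes of Caenorhabditis elegans encode lysosomal lipases, the worm relatives of mammalian lysosomal acid lipase, which release fatty acids from triglycerides and cholesteryl esters inside the lysosome. In the worm, the intestine is the main site of fat storage and breakdown, and lysosomal lipolysis there rises when food is withdrawn. The bHLH transcription factor MXL-3 represses lipase genes of this family in fed worms, and HLH-30, the worm relative of mammalian TFEB, induces them on fasting. LIPL-4 is the best known member for ageing: its overexpression in the intestine lengthens life through a lipid signal that the chaperone LBP-8 carries to the nucleus.

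All 8 genes from lipl-1 to lipl-8 were taken by symbol from the 46589 genes in the deposited table, and all 8 have a row. The family was chosen by its FPKM levels and TM differences in these same libraries, so the levels and changes of its members are given as a description, with no p-value, and nothing is read from how many of them passed a threshold. Poly(A) RNA of whole worms was sequenced from 4 groups of 4 libraries, each library from a separate plate of wild-type N2 worms grown at 20 °C. EMBRYO CNT and EMBRYO TM came from bleach-isolated embryos kept for 24 h without or with tunicamycin (TM) at 1.25 μg/ml in S Medium, and L4 CNT and L4 TM from worms that were kept without or with the same dose for 24 h from the L4 larval stage. TM blocks N-linked glycosylation and causes endoplasmic reticulum stress. By the labels, worms of both stages went back to plates after the exposure until they were adult. In the results section of the study the sequenced worms are Day 1 adults, and TM given at L4 covers the time from L4 to that day. The labels do not say what the control worms received in place of TM. No mutant or tissue-specific promoter was involved, and whole-worm RNA cannot tell fewer intestinal cells from less RNA per cell.

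Values are FPKM, in which fragments are divided by gene length and by library size, which allows levels to be set side by side between genes of different length. Between 12361026 and 47193068 reads per library were assigned to genes. L4 TM replicate 4 had the most, and of its detected genes 0.702% rested on 1 read, against 8.97 to 10.9% in the other 15 libraries. It also had the fewest detected genes, 15377 against 17539 to 21833 in the others, so its lowest values are less certain. L4 CNT replicate 2 and L4 TM replicate 4 deviated from their group means together (correlation 0.48 across genes, which are not independent replicates), so L4 values are also given without both.

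The controls of the 2 stages differed in genes that mark age. The yolk genes vit-1, vit-3 and vit-4, which are transcribed in the intestine of adult hermaphrodites, stood at 4.22, 3.87 and 1.43 FPKM in EMBRYO CNT and at 748, 1104 and 1137 FPKM in L4 CNT. The other yolk genes, vit-2, vit-5 and vit-6, were well detected in EMBRYO CNT, at 3001, 554 and 852 FPKM. In L4 CNT they stood at 6882, 5169 and 6317 FPKM. The adult cuticle collagen col-19 was present in every group, with means of 1073 and 1161 FPKM in EMBRYO CNT and TM and of 878 and 757 FPKM in L4 CNT and TM. The other listed adult collagens were lower in EMBRYO CNT than in L4 CNT, col-7 at 1.49 against 5.48 FPKM and col-62 at 3.05 against 7.53 FPKM, both past the limma thresholds (a log2 fold change over 1 in either direction and an adjusted p under 0.05). In EMBRYO TM they rose to 34.8 FPKM (col-7, log2 difference 3.87) and 37.8 FPKM (col-62, 3.23). All 8 listed dauer and stress-larva markers were higher in EMBRYO CNT than in L4 CNT, among them dao-6 (162 against 0.247 FPKM) and hsp-12.6 (700 against 5.32 FPKM). The summed yolk genes spanned 3679 to 5613 FPKM in EMBRYO CNT, 6496 to 22386 in EMBRYO TM, 19651 to 23421 in L4 CNT and 13948 to 17790 in L4 TM. Headings in the deposited table call the EMBRYO groups L1 and the L4 groups D1. The part of worm stage in the lipase values was not tested.

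Of the 8 genes, 7 lie on chromosome V and lipl-7 lies on chromosome IV. In the deposited coordinates, for which the sources used here name no genome build, lipl-1 (F54F3.3) spans chromosome V from 12920007 to 12922116 on the plus strand. On the same strand, lipl-2 (F46B6.8) runs from 9791571 to 9793391, lipl-4 (K04A8.5) from 6550171 to 6551817 and lipl-5 (ZK6.7) from 385737 to 388090. On the minus strand, lipl-3 (R11G11.14) runs from 521676 to 524218, lipl-6 (Y57E12B.3) from 6931622 to 6934288 and lipl-8 (Y50E8A.7) from 14745684 to 14748708. The exception, lipl-7 (F01G10.7), spans chromosome IV from 10239278 to 10241859 on the minus strand. In the WBcel235 annotation, 6 members have a single transcript, of 5 exons in lipl-1 and lipl-2, 6 in lipl-7, 7 in lipl-3 and lipl-8, and 10 in lipl-6. The annotation gives 2 transcripts for lipl-4 and 4 for lipl-5. Only lipl-4 overlaps another gene, the noncoding K04A8.15 on the other strand, which had 0 reads in every group. Identity between the members was not measured here, so reads that could belong to more than 1 of them were not separated.

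The family fell into genes at very different levels. Per length, lipl-2 and lipl-5 made up most of the family's RNA, with 86.8 to 88.0% of the summed FPKM in EMBRYO TM and between 89.4 and 95.9% in every library of the other groups. The genes lipl-1, lipl-3 and lipl-7 ranged from under 1 to 108 FPKM, and lipl-4, lipl-6 and lipl-8 did not exceed 2.02 FPKM in any library. Over the group means, the widest spread was that of lipl-2 (4.09 on the log2 scale of FPKM + 1), followed by lipl-3 (3.77) and lipl-1 (3.39), while lipl-5 spanned 0.63.

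**Figure D1:**
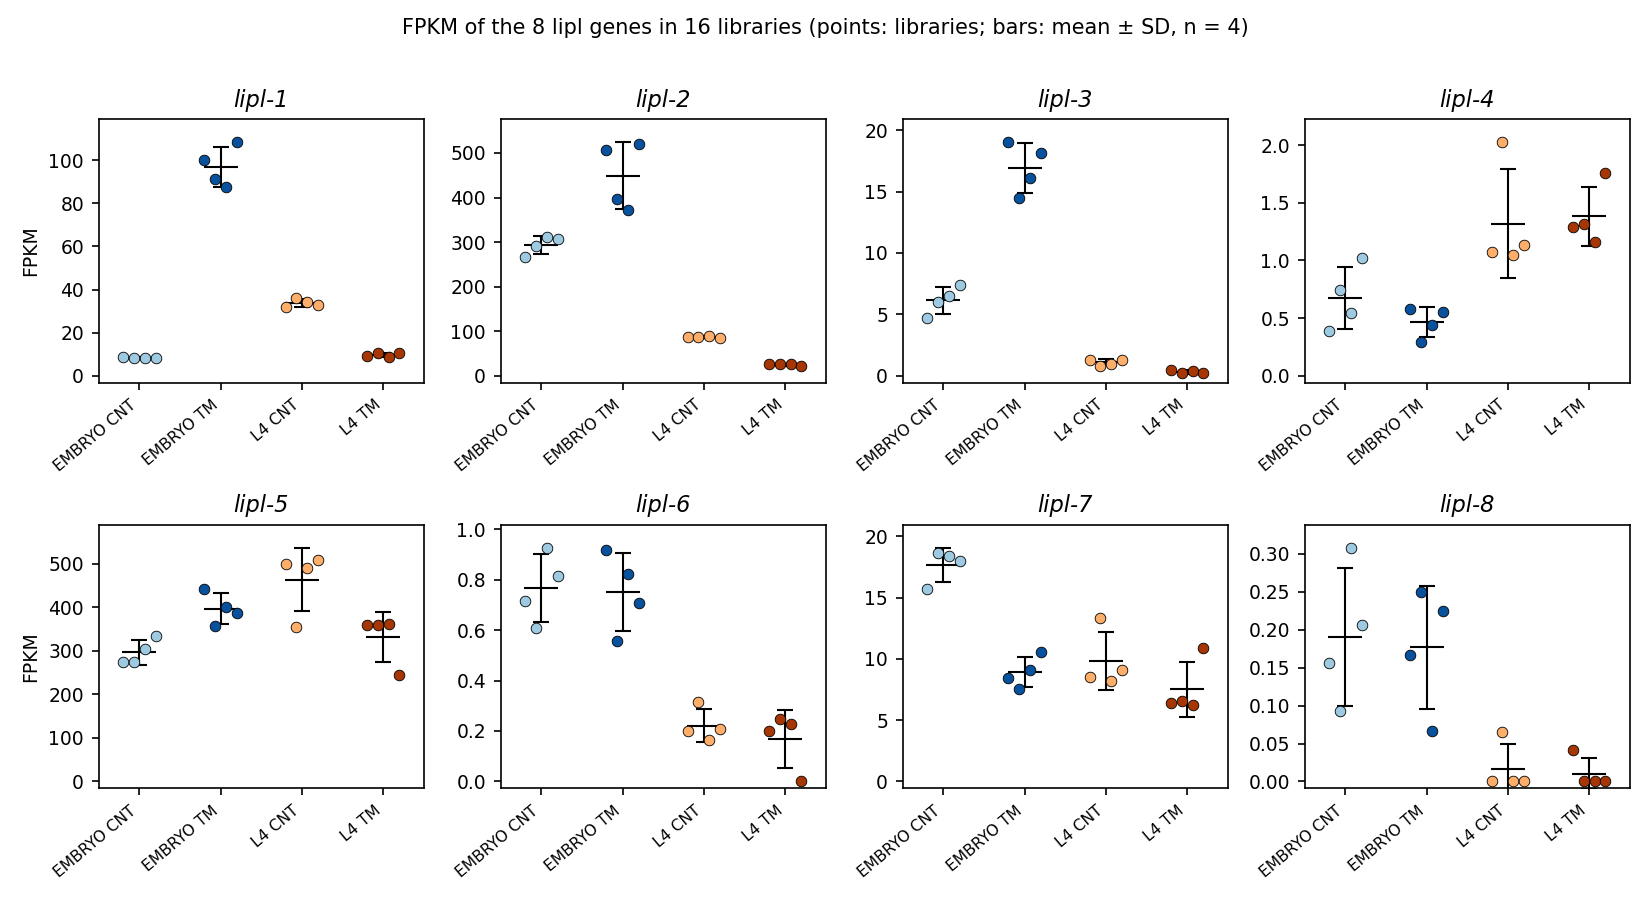
FPKM of each lipl gene in the 16 libraries, with a linear axis of its own for each gene. Points are libraries and bars are the mean ± SD of 4; lipl-1 stands at 87.6 to 108 FPKM in EMBRYO TM and at 36.07 FPKM or less elsewhere, and lipl-2 falls from the EMBRYO groups to L4 TM.

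TM from the embryo was accompanied by a much higher level of lipl-1, a lipase gene held down by MXL-3 in fed worms. It stood at 8.92, 8.03, 8.31 and 8.07 FPKM in EMBRYO CNT and at 100.3, 91.4, 87.6 and 108.4 FPKM in EMBRYO TM. The 2 groups were far apart, with group means of 8.33 ± 0.410 and 96.9 ± 9.29 FPKM (SD, n = 4), an 11.6-fold ratio. On the log2 scale of FPKM + 1 the difference was 3.39 (SE 0.08). These values rest on 172 to 237 reads per EMBRYO CNT library and 1443 to 2650 per EMBRYO TM library.

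The same gene moved the other way with TM from L4. Its level was 31.8, 36.07, 34.2 and 32.8 FPKM in L4 CNT and 9.11, 10.3, 8.63 and 10.7 FPKM in L4 TM, again without overlap. L4 TM was 3.47-fold lower on the group means, with a log2 difference of -1.70 (SE 0.08). Without L4 CNT replicate 2 and L4 TM replicate 4 the ratio was 3.52-fold. The order of the groups was EMBRYO TM, then L4 CNT, then L4 TM and EMBRYO CNT, and these last neighbours overlapped in range (8.63 to 10.7 against 8.03 to 8.92 FPKM).

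A lower level with TM from L4 was also seen for lipl-2, which is among the most abundant members. In L4 CNT it stood at 86.7, 87.7, 89.7 and 84.0 FPKM, and in L4 TM at 27.2, 25.9, 25.5 and 22.0 FPKM. These groups did not overlap, and L4 TM was 3.46-fold lower (log2 difference -1.76, SE 0.07). In the EMBRYO groups lipl-2 was higher to begin with, at 265, 291, 311 and 306 FPKM in EMBRYO CNT, and it was 506, 397, 371 and 520 FPKM in EMBRYO TM. The lowest EMBRYO TM library lay above the highest control, with a 1.53-fold ratio of the means and a log2 difference of 0.60 (SE 0.13), which is within the fold change threshold used here, 1 on the log2 scale.

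The third gene with opposite directions was lipl-3, which also belongs to the fasting-induced lipase genes. Its level was 4.68, 5.97, 6.47 and 7.38 FPKM in EMBRYO CNT and 19.01, 14.4, 16.1 and 18.1 FPKM in EMBRYO TM, a 2.76-fold ratio and a log2 difference of 1.34 (SE 0.13). It was low in the L4 groups, at 1.30, 0.813, 0.944 and 1.26 FPKM in L4 CNT and 0.443, 0.201, 0.424 and 0.188 FPKM in L4 TM. Those L4 values rest on 14 to 45 and 5 to 12 reads per library and did not overlap, with L4 TM 3.44-fold lower on the means. With a mean FPKM under 1 the gene was left out of the L4 fit, and without that filter its log2 difference was -0.66 (SE 0.12), a scale on which adding 1 to the FPKM understates changes of low genes.

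**Figure D2:**
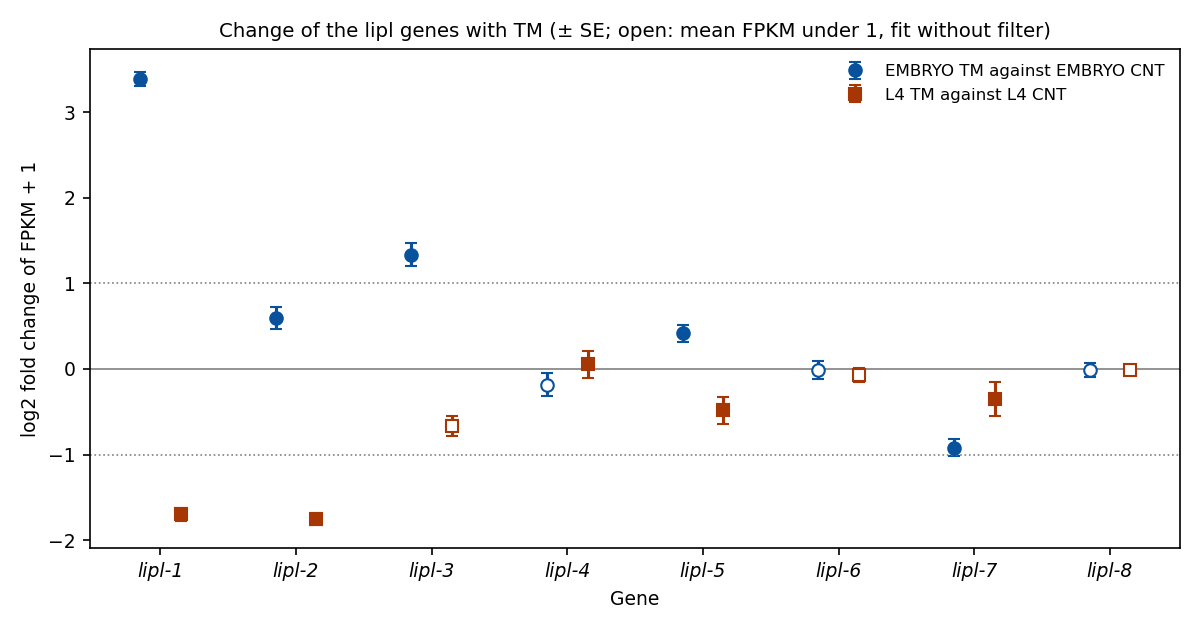
Difference between TM and control for each lipl gene, on the log2 scale of FPKM + 1, from EMBRYO (circles) and L4 (squares); bars are SE and open symbols mark genes under the mean FPKM of 1, whose values come from the fit without that filter. For lipl-1 the difference is 3.39 in EMBRYO and -1.70 in L4, and dotted lines mark the threshold of 1 in each direction.

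The other abundant member, lipl-5, varied least among the genes that passed the filter. Its level was 274, 276, 304 and 335 FPKM in EMBRYO CNT and 442, 357, 402 and 387 FPKM in EMBRYO TM, 1.34-fold higher without overlap (log2 difference 0.42, SE 0.10). In the L4 groups it was 500.4, 355, 491 and 508 FPKM in L4 CNT and 360.0, 360.3, 361.5 and 245 FPKM in L4 TM. These groups overlapped through L4 CNT replicate 2, and the log2 difference was -0.49 (SE 0.16). With L4 CNT replicate 2 and L4 TM replicate 4 left out, 499.7 ± 8.53 FPKM stood against 360.6 ± 0.786 FPKM (SD, n = 3), a difference of -0.47 (SE 0.03), with no overlap.

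In contrast to the genes above, lipl-7 was lower with TM at the embryo stage. It stood at 15.7, 18.6, 18.4 and 17.99 FPKM in EMBRYO CNT and at 8.47, 7.58, 9.07 and 10.5 FPKM in EMBRYO TM, 1.98-fold lower without overlap. The log2 difference of -0.92 (SE 0.10) is within the fold change threshold. In L4 CNT lipl-7 was at 8.56, 13.3, 8.22 and 9.13 FPKM and in L4 TM at 6.43, 6.56, 6.26 and 10.9 FPKM, which overlapped. The same L4 CNT replicate 2 and L4 TM replicate 4 were the high ones, and without them the means were 8.64 ± 0.461 and 6.42 ± 0.153 FPKM (SD, n = 3), with no overlap and a log2 difference of -0.38 (SE 0.06).

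The longevity gene lipl-4 was barely detected. Its level was 0.392, 0.745, 0.543 and 1.02 FPKM in EMBRYO CNT and 0.575, 0.294, 0.439 and 0.549 FPKM in EMBRYO TM, from 5 to 21 reads per library. In L4 CNT it was 1.07, 2.02, 1.04 and 1.13 FPKM and in L4 TM 1.29, 1.32, 1.16 and 1.76 FPKM, from 23 to 106 reads. TM and control overlapped at each stage, and at this depth a difference with TM was not detectable (log2 difference in L4 0.05, SE 0.16). Without L4 CNT replicate 2 and L4 TM replicate 4 the means were 1.08 ± 0.0462 and 1.26 ± 0.0819 FPKM (SD, n = 3), which did not overlap, with a ratio of 1.16.

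For lipl-6 and lipl-8 even less RNA was found. Over the 4 groups, lipl-6 had 13 to 35 reads per library in EMBRYO and 0 to 9 in L4, with means of 0.765 ± 0.135, 0.751 ± 0.155, 0.222 ± 0.0642 and 0.169 ± 0.115 FPKM (SD, n = 4) in controls and TM of EMBRYO and then of L4. The library with 0 reads of lipl-6 was L4 TM replicate 4, which had the fewest detected genes. From lipl-8 there were 1 to 8 reads in each EMBRYO library, and a single read in L4 CNT and another in L4 TM. Neither gene was separated by TM at either stage.

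In the EMBRYO comparison 5 of the 8 members passed the filter, and 2 of them, lipl-1 and lipl-3, passed both limma thresholds, against 12.7% of all 14930 genes tested. Both were higher, and all 5 had groups that did not overlap, against 48.5% of all genes. In L4, 5 members passed the filter and 2, lipl-1 and lipl-2, passed both thresholds, against 3.79% of 11964 genes. Both were lower, and 2 of the 5 did not overlap, against 36.8%. For the stage by TM interaction, the EMBRYO difference minus the L4 difference, 3 of the 5 members that passed the filter were past both thresholds, all of them higher, against 10.7% of 13856 genes in either direction. Since these contrasts were among the values known when the family was taken up, nothing is read from the counts. The interaction was 5.09 (SE 0.12) for lipl-1, 2.35 (SE 0.15) for lipl-2, 2.0 (SE 0.19) for lipl-3, 0.90 (SE 0.20) for lipl-5 and -0.57 (SE 0.23) for lipl-7.

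Between the controls of the 2 stages, 5 members passed the filter. From EMBRYO CNT to L4 CNT, lipl-1 and lipl-5 were 4.05-fold and 1.56-fold higher in L4 CNT, while lipl-2, lipl-3 and lipl-7 were 3.37-fold, 5.67-fold and 1.80-fold higher in EMBRYO CNT. Of these 5, 3 passed both thresholds, 2 higher and 1 lower in EMBRYO CNT, against 40.6% of 14221 genes, and none of them overlapped, against 78.4%. These controls also serve in the TM comparisons, so the comparisons are not independent. In EMBRYO TM, lipl-2 and lipl-3 were further from the L4 controls than EMBRYO CNT was, and lipl-1 was above both controls. The means of lipl-5 and lipl-7 were nearer to L4 CNT in EMBRYO TM than in EMBRYO CNT. For lipl-5 they were 297, 397 and 464 FPKM in EMBRYO CNT, EMBRYO TM and L4 CNT, and for lipl-7 they were 17.7, 8.92 and 9.81 FPKM.

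Added up per length, the family's RNA was 624 ± 48.0 FPKM in EMBRYO CNT and 970 ± 107 FPKM in EMBRYO TM (SD, n = 4). In L4 CNT it was 597 ± 67.7 FPKM and in L4 TM 376 ± 56.9 FPKM. Its makeup changed as well. The share of lipl-1 in the family sum was 1.34% in EMBRYO CNT, 10.0% in EMBRYO TM, 5.74% in L4 CNT and 2.66% in L4 TM. The share of lipl-5 was 47.5% and 41.1% in the EMBRYO groups, and 77.4% and 88.0% in the L4 groups, where lipl-2 held 14.8% and 6.75%.

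**Figure D3:**
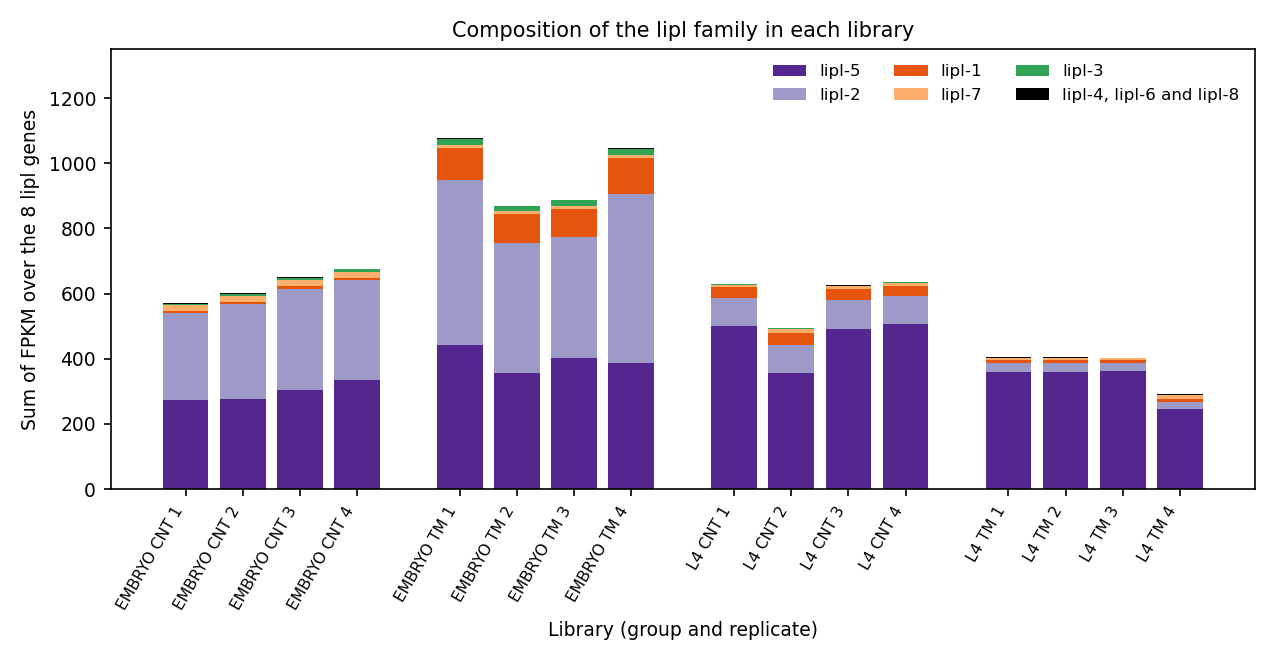
Stacked FPKM of the lipl genes in each of the 16 libraries. The family sum is 570 to 676 FPKM in EMBRYO CNT, 869 to 1078 in EMBRYO TM, 495 to 636 in L4 CNT and 291 to 405 in L4 TM, and lipl-5 (dark purple) holds most of it in the L4 libraries.

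Among the genes known to control lipase transcription, mxl-3 itself was higher with TM. Its level rose from 0.736 to 1.31 FPKM in EMBRYO CNT to 6.71 to 8.88 FPKM in EMBRYO TM (log2 difference 2.12, SE 0.13, limma adjusted p = 3.07e-06). In L4 it was 1.09 to 1.73 FPKM in controls and 3.303 to 3.92 FPKM in L4 TM (0.92, SE 0.11, limma adjusted p = 0.000536), within the fold change threshold and without overlap in either stage. The interaction for mxl-3 was 1.20 (SE 0.17, limma adjusted p = 6.3e-05).

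The activator gene hlh-30 did not pass the test in either stage, with means of 113 and 82.5 FPKM in EMBRYO CNT and EMBRYO TM (-0.51, SE 0.22, limma adjusted p = 0.079) and of 24.5 and 17.1 FPKM in L4 CNT and L4 TM (-0.49, SE 0.17, limma adjusted p = 0.0516). Of the Mad-like bHLH gene mdl-1, the RNA fell past both thresholds in L4 TM, from 20.4 to 8.29 FPKM (-1.21, SE 0.11, limma adjusted p = 0.000112). In EMBRYO TM it was 27.3 against 53.3 FPKM (-0.97, SE 0.17, limma adjusted p = 0.00134), just within the fold change threshold. The intestinal GATA factor gene elt-2 differed by 0.50 in EMBRYO and -0.28 in L4, with an interaction of 0.78 (SE 0.11, limma adjusted p = 4.96e-05), also within the fold change threshold. The nuclear receptor gene nhr-80 was at 10.0 and 5.16 FPKM in L4 CNT and L4 TM (-0.85, SE 0.16, limma adjusted p = 0.00391). The other listed regulators, which were mxl-1, mxl-2, mml-1, daf-16, pha-4, nhr-49, skn-1 and sbp-1, differed by no more than 0.53 in EMBRYO or 0.43 in L4. Of these, the limma adjusted p was under 0.05 for mml-1 (-0.53), pha-4 (-0.52) and daf-16 (-0.39) in EMBRYO. In L4 it was so for pha-4 (-0.43) and skn-1 (0.31). Of all 13 regulators, 1 rose and 0 fell past both thresholds in EMBRYO TM (median -0.22, against -0.03 over all genes tested), and 0 rose and 1 fell in L4 TM (median -0.19, against 0.05). At an unadjusted limma p under 0.05 the counts were 2 higher with 7 lower in EMBRYO, and 2 higher with 5 lower in L4. By limma's voom test on the recovered reads, 1 was called in each direction in EMBRYO, and 1 higher with 2 lower in L4.

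The carriers of the LIPL-4 lipid signal were measured too. The lipid chaperone gene lbp-8 was listed at 0 in all EMBRYO CNT libraries and had means of 0.145, 0.253 and 0.662 FPKM in EMBRYO TM, L4 CNT and L4 TM, under the filter. A related secreted chaperone gene, lbp-3, had 15.6 and 20.98 FPKM in the EMBRYO groups (0.39, limma adjusted p = 0.141) and 51.5 and 55.2 FPKM in the L4 groups. The neuropeptide gene nlp-11, which responds to fat-to-neuron signalling downstream of lipl-4, fell from 28.0 to 11.3 FPKM in EMBRYO TM (-1.25, SE 0.13, limma adjusted p = 5.94e-05). The acyl-CoA synthetase gene acs-2, a target of NHR-49, rose from 0.362 to 4.18 FPKM in EMBRYO TM (1.91, SE 0.18, limma adjusted p = 4.49e-05) and was under the filter in L4. Of the 5 genes tested in EMBRYO, 1 rose and 1 fell (median -0.15), and of the 4 tested in L4, 0 did (median -0.36), while 0 were higher and 2 lower there at an unadjusted limma p under 0.05 and 0 and 2 by voom.

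Lipases outside the family gave a mixed picture. Of 16 lips genes, a further worm lipase family, 9 passed the filter in EMBRYO, and 1 rose and 0 fell past both thresholds (median 0.41). It was lips-5, from 5.51 to 12.1 FPKM (1.01, SE 0.08, limma adjusted p = 9.92e-06), just past the fold change threshold. The count of those that rose was 0 without EMBRYO CNT replicate 1, EMBRYO TM replicate 1 or EMBRYO TM replicate 2, and 2 without EMBRYO CNT replicate 3 or 4. By voom, 1 was higher and 1 lower. Of 5 tested in L4, 2 fell and 0 rose (median -0.11), namely lips-10, from 20.6 to 6.60 FPKM (-1.52, SE 0.10, limma adjusted p = 1.9e-05), and lips-16, from 7.67 to 2.99 FPKM (-1.12, SE 0.22, limma adjusted p = 0.00461). None of the 5 lipid droplet lipolysis genes passed both thresholds in either stage (medians 0.06 and -0.11), by limma or by voom, with 1 higher in EMBRYO and 1 in each direction in L4 at an unadjusted limma p under 0.05. The adipose triglyceride lipase gene atgl-1 had means of 36.6 and 36.07 FPKM in the EMBRYO groups and 46.1 and 43.5 FPKM in the L4 groups. The partner gene lid-1 and the hormone-sensitive lipase gene hosl-1 differed by at most 0.20 in size in either stage, and fil-2 by 0.33 in EMBRYO and -0.19 in L4. The fasting-induced lipase gene fil-1 went from 12.62 to 24.1 FPKM with TM in EMBRYO (0.88, limma adjusted p = 0.000505) and from 4.32 to 2.25 FPKM in L4 (-0.73, limma adjusted p = 0.0047). Its interaction was past both thresholds, at 1.61 (SE 0.19, limma adjusted p = 1.23e-05).

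Other lysosomal hydrolase genes were looked at beside the lipases. Of 31 tested in EMBRYO, 10 rose and 3 fell past both thresholds, with a median of 0.51 against -0.03 over all genes. The largest increases were in the cathepsin B-like protease genes cpr-4, from 168 to 1801 FPKM (3.41, SE 0.12, limma adjusted p = 1.36e-07), and cpr-1 (1.89), the glucocerebrosidase gene gba-4 (2.27) and the aspartyl protease gene asp-2 (1.83). The 3 that fell were cpr-2 (-1.66), the palmitoyl thioesterase gene ppt-1 (-1.13) and gba-3 (-1.13). Of 30 tested in L4, 0 rose and 6 fell, with a median of -0.57 against 0.05, led by cpr-1, from 1111 to 223 FPKM (-2.32, SE 0.20, limma adjusted p = 8.82e-05), cpr-4 (-2.01), asp-6 (-1.46) and the acid ceramidase gene asah-1 (-1.32). At an unadjusted limma p under 0.05, 2 of the 30 were higher and 22 lower in L4, and voom called 0 and 10. In the interaction 18 of 31 were higher and 1 was lower past both thresholds. Between the controls, 6 of 31 were higher and 10 lower in EMBRYO CNT. Among the genes with the largest increases, cpr-4 (1801 against 584 FPKM) and cpr-1 (3542 against 1111 FPKM) were higher in EMBRYO TM than in L4 CNT. The level of gba-4 was lower (152 against 192 FPKM), and that of asp-2 was similar (386 against 385 FPKM).

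The lysosomal membrane genes moved less. Of 18 tested in EMBRYO, 3 rose and 0 fell (median 0.11), which were cln-3.1 (1.55), the intestinal vacuolar ATPase subunit gene vha-6 (1.54) and the scavenger receptor gene scav-1 (1.21). These 3 were lower in EMBRYO CNT than in L4 CNT past both thresholds (-1.77, -1.74 and -1.36). Their means in EMBRYO TM were 7.17, 171 and 47.8 FPKM, under the 8.36, 196 and 52.9 FPKM of L4 CNT. In L4, 0 of 17 passed both thresholds in either direction by limma or voom (median 0.07), and 6 were higher and 6 lower at an unadjusted limma p under 0.05.

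Genes of the fasting response were set beside the family because fasting is what its members are known for. Of 8 tested in EMBRYO, 5 rose and 0 fell past both thresholds (median 1.95), namely ech-9 (4.72), the desaturase genes fat-7 (3.53) and fat-5 (1.99), hacd-1 (3.02) and acs-2 (1.91). As background, acs-2 is induced by fasting, whereas fat-5 and fat-7 are repressed by it, so these genes did not share a single fasting direction. In L4, 0 of 6 rose and 1 fell (median -0.61), the glyoxylate cycle gene icl-1, from 162 to 57.6 FPKM (-1.47, SE 0.07, limma adjusted p = 4.64e-06). Between the controls, 0 of 6 tested were higher and 5 lower in EMBRYO CNT past both thresholds. For fat-7, fat-5 and hacd-1, EMBRYO CNT stood at 9.84, 2.90 and 6.05 FPKM. EMBRYO TM had 124, 14.5 and 55.0 FPKM, under the 155, 33.6 and 76.2 FPKM of L4 CNT. For ech-9 (53.9 against 6.12 FPKM) and acs-2 (4.18 against 0.178 FPKM), EMBRYO TM was above L4 CNT.

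**Figure D4:**
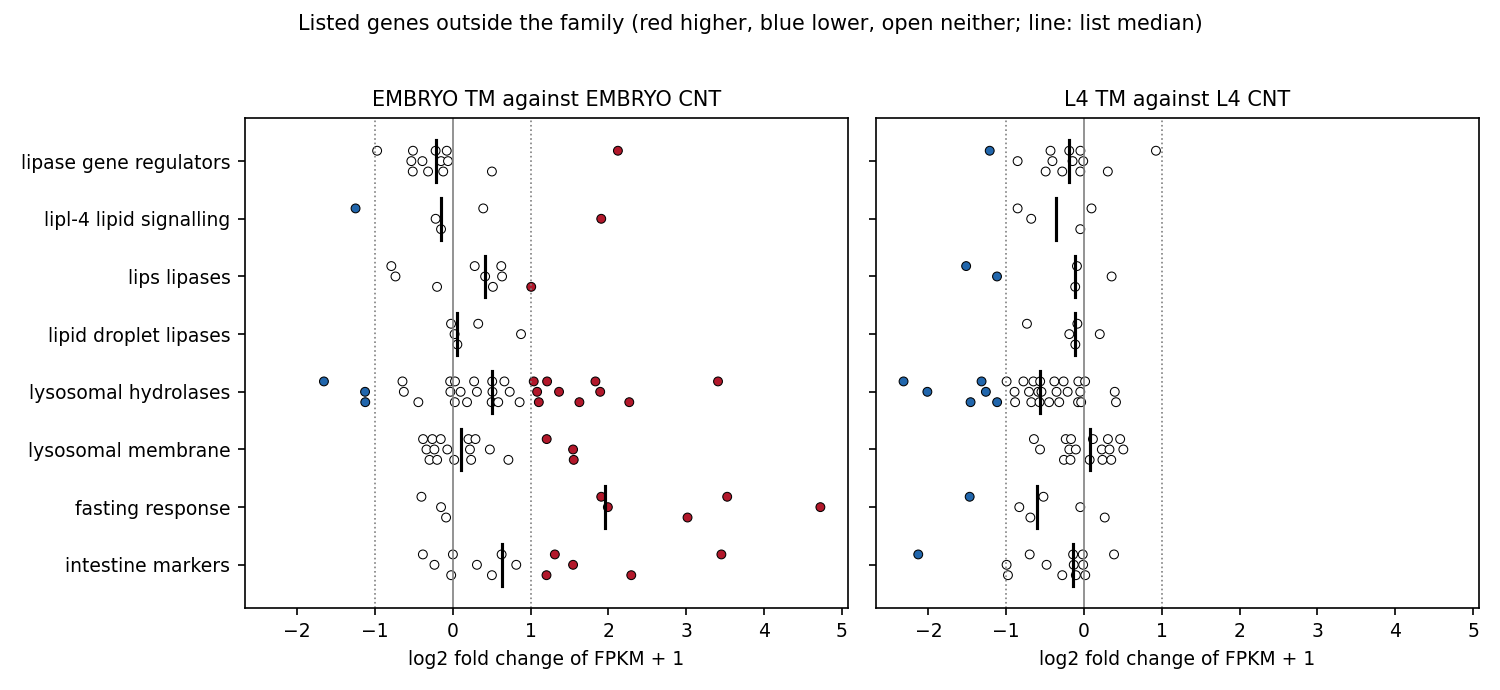
Differences between TM and control on the log2 scale of FPKM + 1 for the listed genes outside the family that passed the filter, 1 point per gene and a line at each list's median. Red points are higher and blue points lower past both thresholds; the lysosomal hydrolases have a median of 0.51 in EMBRYO and of -0.57 in L4.

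Intestinal markers moved in part with the lipases. Of 13 tested in EMBRYO, 5 rose and 0 fell past both thresholds (median 0.63), among them the acid phosphatase gene pho-1 (3.45), and in L4 0 rose and 1 fell, the metallothionein gene mtl-2 (-2.13), with a median of -0.14. The level of pho-1 was 1.94 FPKM in EMBRYO CNT, 31.3 in EMBRYO TM and 60.1 in L4 CNT. Between the controls, 2 of the 13 were higher and 5 lower in EMBRYO CNT past both thresholds. In EMBRYO the unadjusted limma p was under 0.05 for 8 higher and 2 lower, and voom called 5 and 0. In L4 the unadjusted limma p was under 0.05 for 1 higher and 6 lower, voom called 0 and 3, and the count that fell was 3 without L4 TM replicate 2 or 3 and 2 without L4 TM replicate 1 or any of L4 CNT replicates 2, 3 and 4. Their summed level was 8563 to 9559 FPKM in EMBRYO CNT, 7066 to 15734 in EMBRYO TM, 4597 to 6034 in L4 CNT and 2620 to 3616 in L4 TM, a sum made up mostly of the aspartyl protease gene asp-1. None of the 13 was at 0 in any group mean. Their part in the lipase values was not tested. All 6 yolk genes rose past both thresholds in EMBRYO TM, or 5 to 6 with each library left out, and 3 of the 8 dauer markers fell. The yolk gene vit-2 overlapped between EMBRYO CNT and EMBRYO TM (1.09, SE 0.36, limma adjusted p = 0.0285). Of 7 body wall muscle markers, 0 rose and 3 fell (median -0.53), or 2 to 3 with each library left out. Their summed level, with unc-54 and unc-15 as its highest genes, went from 2815 to 3162 FPKM in EMBRYO CNT to 1020 to 1900 FPKM in EMBRYO TM. Of 8 sperm markers tested, 5 rose and 0 fell in EMBRYO TM (median 1.52), and the summed level went from 117 to 133 FPKM to 282 to 339 FPKM. Of 8 neuron markers, 0 rose and 2 fell (median -0.59), with sums of 598 to 650 FPKM in EMBRYO CNT and 323 to 344 FPKM in EMBRYO TM. Of 6 hypodermis markers, 2 rose and 0 fell (median 0.69), with sums of 78.2 to 90.0 and 124 to 198 FPKM, and 2 of 13 oocyte and eggshell markers rose, or 1 without EMBRYO CNT replicate 2 or 3 or EMBRYO TM replicate 2 or 3. The part of these cell types in the lipase values was not tested either. In L4 TM, 0 of 6 yolk genes and 0 of 7 muscle markers passed both limma thresholds, with 1 higher and 3 lower, and 1 higher and 2 lower, at an unadjusted p under 0.05, and voom called 0 and 1 of them. Of 13 oocyte and eggshell, 8 sperm, 7 neuron and 5 hypodermis markers tested there, 0 passed both limma thresholds. Their medians were 0.41, 0.01, -0.46 and -0.66. At an unadjusted limma p under 0.05, 11, 0, 0 and 1 were higher and 0, 1, 6 and 4 lower. Voom called 0 of them higher and 0, 1, 1 and 3 lower. With each library left out, 0 or 1 hypodermis marker was called in each direction.

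Among the genes next to the lipases on the chromosome, some moved with them and others did not. The short-chain dehydrogenase gene dhrs-4 starts 489 bases beyond lipl-1 on the same strand. In L4 it fell from 122 ± 3.84 to 38.9 ± 1.49 FPKM (SD, n = 4), a log2 difference of -1.63 (SE 0.05, limma adjusted p = 5.82e-07) beside -1.70 for lipl-1. In EMBRYO, where lipl-1 differed by 3.39, dhrs-4 differed by 0.26 (SE 0.13, limma adjusted p = 0.109). On the other side of lipl-1, the basement membrane gene nid-1 rose by 1.04 in EMBRYO TM (SE 0.09, limma adjusted p = 2.23e-05) and differed by 0.53 in L4. The enoyl-CoA hydratase gene ech-8, 163 bases from lipl-7 on the same strand, fell in L4 TM from 47.6 to 17.1 FPKM (-1.43, SE 0.07, limma adjusted p = 3.48e-06) and differed by 0.16 in EMBRYO (limma adjusted p = 0.161), where lipl-7 was lower. Closest to lipl-3, at 58 bases, srw-107 was listed at 0 in all libraries. Beside lipl-6, which TM did not separate, Y57E12B.10 fell in EMBRYO TM (-1.29, SE 0.21, limma adjusted p = 0.000979). In EMBRYO, ztf-7 beside lipl-2 (-0.60, limma adjusted p = 0.00125) and tkt-1 beside lipl-7 (0.91, limma adjusted p = 0.0102) went opposite to their lipase genes, within the fold change threshold. The remaining neighbours are not described here.

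Likeness of pattern was measured as the root mean square difference of log2(FPKM + 1) around each gene's own mean over all 16 libraries, among 13005 candidate genes. The 3 genes nearest to lipl-2 were math-38 (0.24), clec-172 (0.32) and Y65B4BR.1 (0.34). Of these, Y65B4BR.1 had means of 292 and 450.2 FPKM in EMBRYO CNT and TM and of 104 and 16.8 FPKM in L4 CNT and TM, beside 293.6, 449, 87.0 and 25.1 FPKM for lipl-2. Nearest to lipl-3 were fil-1 and the collagen genes sqt-3 and col-125, each at 0.40. Within the family, lipl-2 and lipl-3 differed by 0.49, less than lipl-1 from either of them (1.51 and 1.35).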

How the data were processed

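RNA-seq values of 16 libraries in 4 groups of 4 were analysed. Per the methods and the submitters' processing notes, the authors aligned reads with HISAT2 2.0.5, counted them per gene with featureCounts 1.5.0-p3 and tested them with DESeq2. They deposited FPKM values, gene lengths and positions, and group means, which were not used for tests. The notes also name StringTie 1.3.3b. No genome build is named in the sources used here.

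Reads per gene were recovered from FPKM and gene length, since their products were whole multiples of 1 step (tolerance 0.01 reads); their precision covers counting error only, since PCR duplicates cannot be separated. Because the files hold FPKM and not counts, limma 3.58.1 in R 4.3.3 took the place of the authors' DESeq2. Linear models on log2(FPKM + 1) with a mean-variance trend took the 8 libraries of a comparison, or all 16 for the interaction, and the genes whose mean FPKM in those libraries reached 1. Two-sided p-values were adjusted over all genes tested by the Benjamini-Hochberg method, with thresholds of a log2 fold change over 1 and an adjusted p under 0.05. The test was checked on simulated data without deviating libraries, so that check does not cover the deviating L4 libraries.

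The members and gene lists were chosen with earlier results of these data known, and no p-value is given for a member. Named were all 8 members, all genes of the regulator, LIPL-4 signalling and droplet lists, and, of the other lists, genes past both thresholds, at most 4 per direction and comparison; stage markers could be named freely, and neighbours were named after their values were seen. Among the lips, hydrolase and intestine lists, 16 of 17, 33 of 34 and 13 of 14 symbols were found. Alternatives were pseudocounts of 0.1 and 5, a minimum mean FPKM of 5 or none, rescaling by median ratio or to TPM, only protein-coding genes, a single model of all 16 libraries, a replicate block, each library left out and the adjusted p alone. Limma's voom on the recovered reads and the L4 fit without 2 libraries were added after seeing the data. Same-numbered libraries had correlations of deviations from -0.33 to 0.23, so the numbers were not taken as pairs. Python 3.11.15 with pandas 2.3.3 and matplotlib 3.10.9 was used for tables and plots.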

Additional observations from a re-analysis of the deposited data

Results flagged for a closer look

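In 6 of the 32 sets of 4 libraries (8 genes in 4 groups), 1 library lay far from the other 3. Chance puts about 1 in 20 sets there, but the sets are not independent: 5 of the 6 come from the same 2 libraries, and the lipl-8 sets are 1 read against libraries at 0. L4 CNT replicate 2 was such a library for lipl-4 (2.02 FPKM, others 1.04 to 1.13), for lipl-5 (355 FPKM, others 491 to 508) and for lipl-8 (0.0651 FPKM, 1 read, others at 0). L4 TM replicate 4 was one for lipl-5 (245 FPKM, others 360.0 to 361.5) and for lipl-7 (10.9 FPKM, others 6.26 to 6.56). For lipl-8, L4 TM replicate 1 had 0.0414 FPKM, also from 1 read, with the others at 0.

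The TM differences of the 2 stages lay apart for lipl-1 (5.09 on the log2 scale, EMBRYO minus L4), lipl-2 (2.35) and lipl-3 (2.0). The family was chosen with these differences known, so the values are a description only. Every EMBRYO TM library of these 3 genes lay above every EMBRYO CNT library, and every L4 TM library below every L4 CNT library.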

How the results depend on the processing

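Under the alternatives, 419 of 431 values of the members' log2 differences kept their side of the thresholds, 10 came to pass them and 2 no longer did, and no called value changed its sign. With a pseudocount of 5, lipl-3 fell within the fold change threshold in EMBRYO (0.98) and between the controls (0.87), which left 1 member higher in each. A mean FPKM of at least 5 also left 1 member higher between the controls, since lipl-3 was then not tested. TPM rescaling put lipl-7 past it in EMBRYO (-1.01), which made 1 member lower, and between the controls (1.01). With the adjusted p alone, 4 members were higher and 1 lower in EMBRYO, and 2 lower between the controls. That setting also called lipl-5 lower in L4 (-0.49), lipl-7 higher between the controls (0.81) and lipl-5 higher in the interaction (0.90). Without L4 CNT replicate 2 the lipl-5 interaction was 1.03, and 4 members were higher in place of 3. The lipl-4 difference in L4, which passed no threshold and was 0.05, changed its sign to -0.02 without L4 TM replicate 4 and to just under 0 without L4 CNT replicate 3, and was 0.19 without L4 CNT replicate 2.

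Over all genes, 1892 passed both thresholds in EMBRYO, 453 in L4, 5773 between the controls and 1486 in the interaction. With a pseudocount of 5 these were 867, 207, 2620 and 752, and with the adjusted p alone 7863, 4323, 11836 and 4052. In L4 a pseudocount of 0.1 gave 690 and voom 835. A mean FPKM of at least 5 gave 3498 between the controls and 982 in the interaction. With each library left out the counts were 1819 to 2071, 434 to 480, 5621 to 5925 and 1403 to 1546. TPM rescaling shifted the median of all genes to -0.12 in EMBRYO and 0.36 between the controls, where 4965 were higher and 1342 lower in place of 3713 and 2060. The replicate block gave 1883, 442, 5808 and 1478, with the same counts of members. For the lists, 160 of 2720 counts moved by more than 1.5 times, or to or from 0. The planned promoter and protein motif searches were not run, since no sequence was used here. Genes under about 1 FPKM rest on few reads, which limits lipl-4, lipl-6 and lipl-8.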
